A study of Mus musculus with 80 samples.

Results

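Amino acid catabolism and the urea cycle were followed through 46 genes, chosen by name for the enzymes they encode and found by symbol among the 20105 genes of a count table from mouse liver nuclei. All 46 were listed, and all 46 passed the filter on low counts in each comparison. The table covered female mice of a hepatocyte line (HEP-INTACT) and a macrophage line (MAC-INTACT), in which INTACT, an affinity capture of nuclei that carry a tag in 1 cell type, was used to collect nuclei from the liver. Food was withdrawn at ZT12, the onset of the active phase of mice (ZT, zeitgeber time, counts hours after lights on), and livers were taken after 3, 8, 16 or 24 h, which fell at ZT 15, 20, 4 and 12. Fed controls with free access to food were taken at each of the 4 times. The groups were tagged hepatocyte nuclei after a fast of 3, 8, 16 or 24 h and tagged macrophage nuclei after the same fasts, and each was set against tagged nuclei of the same line and time from fed mice. Every one of these 16 groups had 4 libraries. Unpurified liver nuclei were sequenced as 1 pool of 4 mice per feeding state, time and line, 16 pools in all. Every group carried the INTACT tag of its line and the sources used here give neither the promoter that drives the tag nor the age of the mice. The labels do not say whether the 4 libraries of a group came from 4 mice, and p-values then reflect how far these libraries spread.

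As background, amino acids that are not built into protein lose their nitrogen through transaminases and deaminases, and the carbon skeletons enter gluconeogenesis, ketogenesis or the citric acid cycle. The liver joins the freed ammonia and the amino group of aspartate into urea, in a cycle that starts with Cps1 in mitochondria and ends with Arg1 in the cytosol. Glucagon, cortisol or corticosterone and the fall of insulin in fasting are known inducers of many of these enzymes, of which Tat and Tdo2 are textbook cases.

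The libraries held 12597786 to 30089561 counts in tagged hepatocyte nuclei, 14968505 to 44694933 in tagged macrophage nuclei, and 13246494 to 35514304 in unpurified nuclei. The 46 genes took 1.91% to 4.85% of the counts in tagged hepatocyte libraries and 0.632% to 2.59% in tagged macrophage libraries. Against unpurified nuclei, 13 of 14 markers of Kupffer cells and macrophages were lower in tagged hepatocyte nuclei (median log2 difference -2.32), and 14 of 14 were higher in tagged macrophage nuclei (median 4.13). The 14 hepatocyte markers were lower in tagged macrophage nuclei by a median of -1.22 but were still read there, at a summed level of 3069 to 8100 CPM (counts scaled to library size with TMM factors). Sinusoidal endothelial markers summed to 448 to 876 CPM in tagged macrophage libraries, beside 604 to 742 CPM in the pools of that line. In tagged hepatocyte libraries they summed to 71.1 to 188 CPM, beside 701 to 840 CPM in the pools of that line. A few libraries stood apart. The summed level of the 46 genes in hepatocyte nuclei after 8 h of fast was 21370, 32443, 25123 and 53830 CPM in replicates 1 to 4. In macrophage nuclei after 3 h of fast, replicate 3 had 30408 CPM while the other 3 had 14923 to 15553 CPM.

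RNA came from nuclei, with no selection for poly-adenylated RNA, the listed length of each gene spans its whole body, and the counts are of nuclear RNA. Per kilobase of gene body, Tat, the tyrosine aminotransferase, had the highest median over the 32 tagged hepatocyte libraries, at 160.4 CPM per kb. It was followed by Gnmt, the glycine N-methyltransferase (104 CPM per kb), Mat1a, which makes S-adenosylmethionine (99.9 CPM per kb), and Hpd, the second enzyme of tyrosine breakdown (72.1 CPM per kb). Among urea cycle genes the order per length was Cps1 (60.4), Arg1 (42.9), Asl (31.6), Otc (5.38) and Nags (4.85 CPM per kb). Ass1, the argininosuccinate synthase, which acts between Otc and Asl, stood at only 0.0215 CPM per kb, or 2 to 87 counts per tagged hepatocyte library. No other annotated gene overlaps Ass1 (chr2:31470269-31520670, mm10), and why it is listed this low in liver was not tested, so its fold changes rest on few reads. Gpt2 and Gpt, Sds and Sdsl, Prodh and Prodh2, and Bhmt with its neighbour Bhmt2 are related gene pairs whose shared reads the counting may have split. In the GENCODE annotation Gls2, Hpd, Sds and Bckdha are each overlapped by a protein-coding gene on the opposite strand, and the sources used here do not say whether the counting used strand. Oat and Aldh4a1 are overlapped there on their own strand, by Fgfr2 and Gm21969, which counting by strand would not separate, although the count table's own position for Fgfr2 ends before Oat.

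Some of these genes lie side by side. Sdsl (chr5:120458201-120472763, minus strand) and Sds (chr5:120476546-120483905, plus strand) are separated by 3782 bases. Hal (chr10:93488767-93516743, plus strand) and Amdhd1 (chr10:93523337-93540033, minus strand), which encode the ammonia lyase and the imidazolonepropionase of histidine breakdown, are separated by 6593 bases. Bhmt (chr13:93616890-93637758, minus strand) and Dmgdh (chr13:93674435-93752823, plus strand), which act one after the other on betaine and dimethylglycine, are separated by 36676 bases that hold Bhmt2. All positions are in mm10, the build the submitters' processing notes give.

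Promoter windows of 300 bases, 250 before to 50 after the start, were available from RefSeq (build GRCm38.p6) for 35 of the 46 genes. Windows of 5 genes that the fasting results turn on are shown: Tdo2, Aass, Oat and Got1, which were higher in fasted hepatocyte nuclei, and Haao, which was lower. Capitals mark matches on either strand to TGACG (the core of the cAMP response element, which also lies inside the full TGACGTCA), TGACGTCA, TTGCGCAA (a C/EBP palindrome), TGTTTAC (forkhead), AGAACA (1 arm of a glucocorticoid response element), AGGTCA (the hexamer that many nuclear receptors bind) or TATAAA (the TATA box). Each window is written 5′ to 3′ on the strand of its gene.
Tdo2 (minus strand, chr3:81975679-81975978): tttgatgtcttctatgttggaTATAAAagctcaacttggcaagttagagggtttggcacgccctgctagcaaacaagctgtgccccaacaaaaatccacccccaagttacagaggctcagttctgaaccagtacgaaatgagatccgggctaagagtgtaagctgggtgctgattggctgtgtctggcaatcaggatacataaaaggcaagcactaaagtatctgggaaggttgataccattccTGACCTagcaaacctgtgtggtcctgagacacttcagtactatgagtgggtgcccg
Aass (minus strand, chr6:23132937-23133236): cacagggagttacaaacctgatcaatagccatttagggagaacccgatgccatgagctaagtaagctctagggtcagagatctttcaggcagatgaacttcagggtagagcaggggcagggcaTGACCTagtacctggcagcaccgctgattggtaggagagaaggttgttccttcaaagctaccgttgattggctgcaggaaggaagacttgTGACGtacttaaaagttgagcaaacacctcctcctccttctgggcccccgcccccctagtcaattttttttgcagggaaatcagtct
Oat (minus strand, chr7:132576349-132576648): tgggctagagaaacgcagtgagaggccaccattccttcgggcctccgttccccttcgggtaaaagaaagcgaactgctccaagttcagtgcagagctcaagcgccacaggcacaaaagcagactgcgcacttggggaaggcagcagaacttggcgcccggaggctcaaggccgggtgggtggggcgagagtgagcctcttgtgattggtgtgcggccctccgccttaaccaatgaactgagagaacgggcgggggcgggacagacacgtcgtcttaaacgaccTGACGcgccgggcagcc
Got1 (minus strand, chr19:43524556-43524855): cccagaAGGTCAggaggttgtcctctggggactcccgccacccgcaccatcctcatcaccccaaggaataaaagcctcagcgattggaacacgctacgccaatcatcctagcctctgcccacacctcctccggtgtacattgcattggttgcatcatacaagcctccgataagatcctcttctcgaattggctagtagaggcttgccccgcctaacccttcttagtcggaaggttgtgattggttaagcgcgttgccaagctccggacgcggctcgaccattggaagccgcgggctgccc
Haao (minus strand, chr17:83846741-83847040): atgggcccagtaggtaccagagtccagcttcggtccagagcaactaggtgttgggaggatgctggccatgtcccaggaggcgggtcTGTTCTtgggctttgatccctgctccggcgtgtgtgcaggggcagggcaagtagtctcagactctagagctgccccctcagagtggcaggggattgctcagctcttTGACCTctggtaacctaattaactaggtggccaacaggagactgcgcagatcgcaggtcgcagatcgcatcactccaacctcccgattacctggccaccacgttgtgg

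AGGTCA was in 14 of the 35 windows (40%), while 16.3% of all 32851 RefSeq promoter windows held it. TGACG was in 4 of 35 (11.4%, with 20.8% of all windows), in Nags, Ftcd, Oat and Aass. AGAACA was in 4 of 35 (11.4%, with 19% of all windows), in Kmo, Haao, Agxt and Bckdhb, and TATAAA was in 5 of 35 (14.3%, with 13.6% of all windows), in Got2, Hgd, Tdo2, Hal and Ftcd. TGACGTCA, TTGCGCAA and TGTTTAC were in none of the 35 windows and in 1.79%, 0.183% and 3.65% of all windows. A match is a run of letters and not evidence of binding.

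In tagged hepatocyte nuclei, some of these genes were called higher and some lower after fasting, as was so over all genes tested. More were called higher than lower at each of the 4 times. The margin was wide at 3 and 24 h and small at 8 and 16 h. After 3 h, 18 of 46 were higher and 5 lower than in fed nuclei of the same time, where 19.5% and 20.4% of the 12942 genes tested were higher and lower. A log2 fold change is of fasted over fed nuclei, and the value after ± is its SE. After 8 h, 12 were higher and 11 lower (18% and 20.7% of all genes), after 16 h 6 were higher and 4 lower (9.55% and 8.55%), and after 24 h 13 were higher and 4 lower (11.6% and 12.4%). All 4 fasted libraries lay above all 4 fed ones for 17, 8, 3 and 16 of the 46 genes at 3, 8, 16 and 24 h (17.6%, 14.6%, 7.07% and 11.9% of all genes). They lay below for 7, 14, 5 and 2 (23.5%, 21.9%, 8.62% and 13.2%). The median log2 fold change of the 46 was 0.33, 0.02, -0.15 and 0.29 at 3, 8, 16 and 24 h, beside -0.03, -0.02, 0.01 and -0.01 for all genes tested. Calls are at an adjusted p under 0.05 by edgeR's quasi-likelihood test with Benjamini-Hochberg adjustment over all genes, which gives every adjusted p in these results. Over the 4 times, 21 of the 46 were called higher and never lower, 11 lower and never higher, 3 in both directions, and 11 at no time. The same tally was not made over all genes, so it does not show that these genes respond more often than others. Tdo2 and Mat1a were higher at all 4 times, and Haao was lower at all 4. When 1 library was left out at a time, 16 of the 23 calls at 3 h, 14 of 23 at 8 h, 6 of 10 at 16 h and 8 of 17 at 24 h held in each of the 8 fits. Without fasted replicate 4 at 8 h the count was 15 in place of 23, and without fasted replicate 1 at 24 h it was 11 in place of 17.

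**Figure D1:**
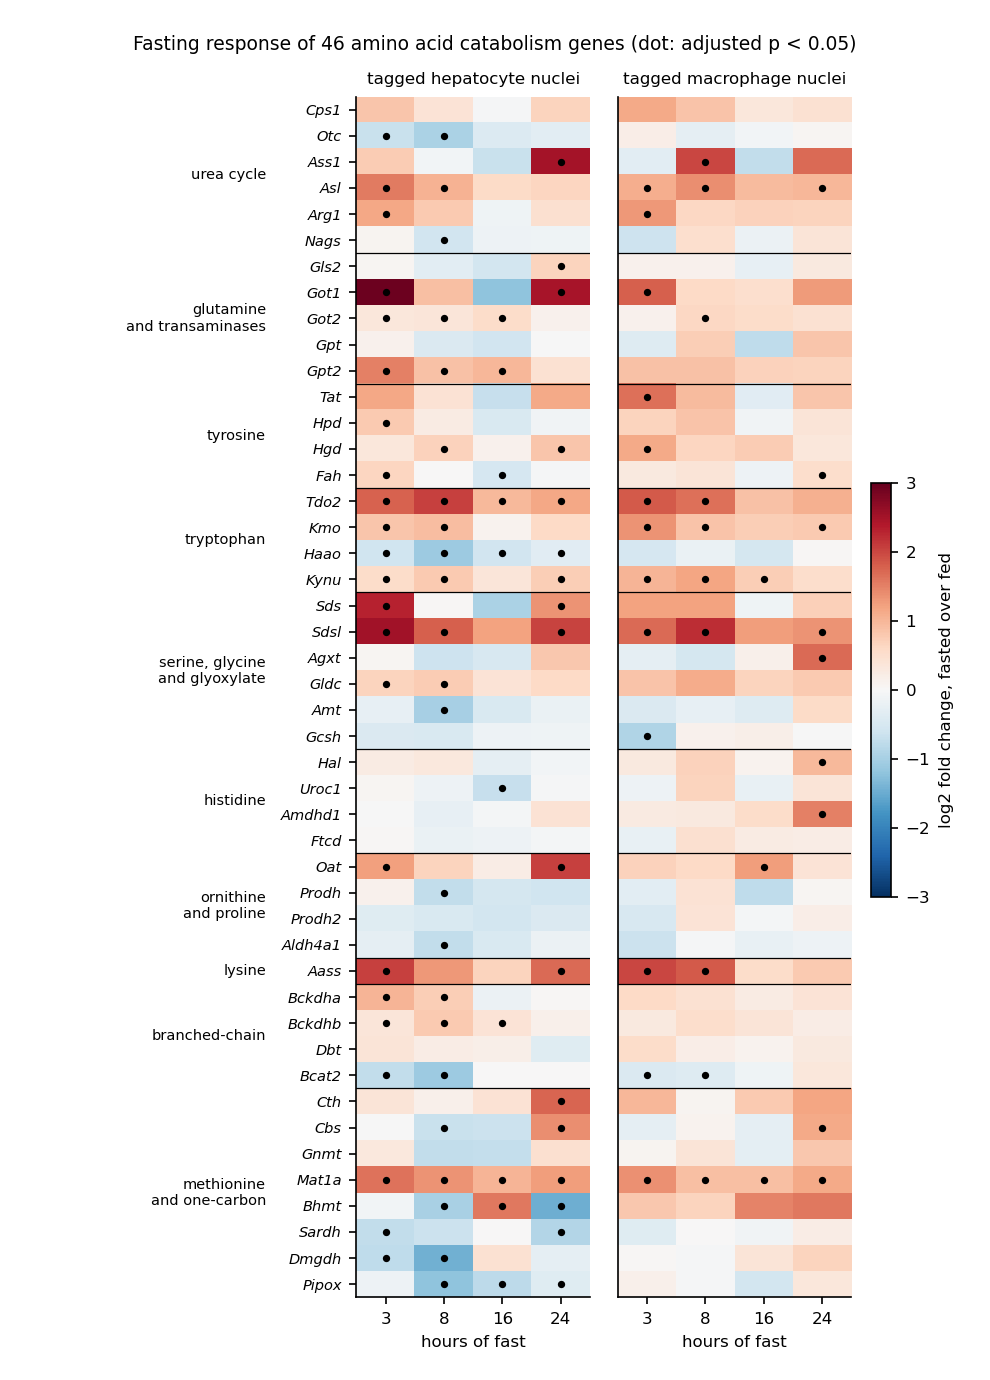
Each cell is the log2 fold change of fasted over fed nuclei for 1 of the 46 genes (rows, grouped by pathway) after 3, 8, 16 and 24 h (columns), in tagged hepatocyte nuclei on the left and tagged macrophage nuclei on the right. A dot marks an adjusted p under 0.05, as for 18 higher and 5 lower genes in hepatocyte nuclei at 3 h and 11 higher and 2 lower genes in macrophage nuclei at 3 h.

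Of the 6 urea cycle genes, Asl was called higher at 2 times, Arg1 and Ass1 at 1 time each, Otc was called lower at 2 times, Nags at 1, and Cps1 at none. Asl, which splits argininosuccinate into arginine and fumarate, had 879, 728, 1062 and 761 CPM in fasted libraries, against 298, 408, 257 and 245 CPM in fed libraries after 3 h. The groups did not overlap, with a log2 fold change of 1.57 ± 0.43 (SE, adjusted p = 0.00431). Arg1, which releases urea from arginine, had 724, 546, 747 and 573 CPM in fasted libraries, against 338, 287, 335 and 256 CPM in fed libraries after 3 h. This was again without overlap, with a log2 fold change of 1.15 ± 0.35 (SE, adjusted p = 0.011). At 8 h Asl was higher by 1.05 ± 0.42 (SE, adjusted p = 0.0495), but its 4 fasted libraries held 242, 648, 391.66 and 908 CPM, and the call was lost in 6 of 8 fits without 1 library (adjusted p = 0.212 without fasted replicate 4).
Otc, which joins carbamoyl phosphate to ornithine, went the other way. It had 237, 197, 229.8 and 138 CPM in fasted libraries, against 358, 375, 459 and 407 CPM in fed libraries after 8 h, with no overlap and a log2 fold change of -0.94 ± 0.24 (SE, adjusted p = 0.00243). At 3 h its change was -0.67 ± 0.24 (SE, adjusted p = 0.0251), with fasted replicate 2 among the fed values, and the call was lost in 6 of 8 fits without 1 library. Nags makes the activator that Cps1 needs, and was lower at 8 h, with -0.58 ± 0.19 (SE, adjusted p = 0.0152), with overlap and with the call lost in 4 of 8 fits. Cps1 had 9351, 6663, 10492 and 7661 CPM in fasted libraries, against 6387, 5148, 3881 and 4743 CPM in fed libraries after 3 h. These groups did not overlap, yet a log2 fold change of 0.82 ± 0.38 (SE, adjusted p = 0.0832) did not pass the threshold. A fit to only the 8 libraries of a time called Cps1 higher at 3 h and at 24 h (edgeR's adjusted p = 0.00577 and 0.0418). At 8 h the fasted Cps1 levels spread over both sides of the fed ones, with 2416, 6614, 3575 and 17586 CPM in fasted libraries, against 6079, 5437, 6106 and 5755 CPM in fed libraries. Ass1 had 4.88, 3.34, 3.11 and 1.05 CPM in fasted libraries, against 0.813, 0.939, 0.389 and 0.216 CPM in fed libraries after 24 h, with a log2 fold change of 2.49 ± 0.60 (SE, adjusted p = 0.00331). All 4 fasted libraries lay above the fed ones at that time, at counts of 13 to 87 in fasted and 4 to 12 in fed libraries.

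Got1, the cytosolic aspartate aminotransferase, had the highest fold change of the 46 genes at 3 h. It had 1114, 579, 1663 and 669.5 CPM in fasted libraries, against 186, 139, 88.2 and 138 CPM in fed libraries, with a log2 fold change of 2.93 ± 0.62 (SE, adjusted p = 0.00044). After 24 h it had 1636, 1245, 1410.3 and 2327 CPM in fasted libraries, against 254, 378, 296 and 282 CPM in fed libraries, with a log2 fold change of 2.47 ± 0.61 (SE, adjusted p = 0.00397). The fasted libraries were all above the fed ones at both times. Between these times the order broke up. After 16 h Got1 had 89.7, 501, 416 and 45.9 CPM in fasted libraries, against 874, 886, 249 and 433 CPM in fed libraries, and the change of -1.20 ± 0.58 (SE, adjusted p = 0.161) was not called. Gpt2, the mitochondrial alanine aminotransferase, was higher at 3, 8 and 16 h, by 1.52 ± 0.26, 0.89 ± 0.26 and 0.99 ± 0.26 (log2 fold change ± SE, adjusted p = 4.08e-05, 0.00769 and 0.00812). At 16 h Gpt2 had 404, 526, 826 and 407 CPM in fasted libraries, against 294, 349, 261 and 201 CPM in fed libraries, without overlap. Its call was lost without fasted replicate 3 (adjusted p = 0.0683), and at 8 h without fasted replicate 4 (adjusted p = 0.0912). Got2, the mitochondrial aspartate aminotransferase, moved by less and at the same 3 times, with 0.33 ± 0.11, 0.37 ± 0.11 and 0.56 ± 0.11, and its fasted libraries lay above the fed ones each time. Its call at 3 h was lost without fed replicate 2 (adjusted p = 0.071). Gls2, the liver glutaminase, was called higher at 24 h by 0.66 ± 0.23 (SE, adjusted p = 0.036), a call lost in 6 of 8 fits without 1 library. Gpt, the cytosolic alanine aminotransferase, was not called at any time, with log2 fold changes of -0.57 to 0.13.

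The serine dehydratases Sds and Sdsl, which turn serine into pyruvate, were next. Sds had 613, 300.3, 713 and 380.2 CPM in fasted libraries, against 114, 126, 77.1 and 106 CPM in fed libraries after 3 h, with a log2 fold change of 2.30 ± 0.48 (SE, adjusted p = 0.000353). After 24 h it had 509, 589, 424 and 749.9 CPM in fasted libraries, against 172, 338, 169 and 220.3 CPM in fed libraries, with a log2 fold change of 1.35 ± 0.46 (SE, adjusted p = 0.0335). This second call was lost in 6 of 8 fits without 1 library. Sds levels did not overlap at either time. At 16 h the 4 fasted libraries split, with replicates 2 and 3 at 292 and 229 CPM and replicates 1 and 4 at 63.0 and 45.7 CPM, beside 216 to 366 CPM in fed libraries. Sdsl, the neighbour of Sds on the opposite strand, was read at far lower levels. It had 39.1, 12.8, 42.03 and 23.3 CPM in fasted libraries, against 4.15, 7.33, 4.51 and 5.26 CPM in fed libraries after 3 h, with a log2 fold change of 2.51 ± 0.45 (SE, adjusted p = 7.6e-05). After 8 h it had 14.8, 38.4, 15.7 and 65.6 CPM in fasted libraries, against 12.4, 9.82, 6.96 and 10.7 CPM in fed libraries, with a log2 fold change of 1.79 ± 0.44 (SE, adjusted p = 0.00199). Its fasted libraries were above the fed ones at 3, 8 and 24 h, and the change at 24 h was 2.03 ± 0.45 (SE, adjusted p = 0.00165). So at 8 h Sdsl was called higher while Sds, at 0.04 ± 0.45 (SE, adjusted p = 0.952), was not.

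Of the other genes of serine, glycine and glyoxylate, Gldc, the decarboxylase of the glycine cleavage system, was higher at 3 h (0.67 ± 0.27, adjusted p = 0.0456) and 8 h (0.76 ± 0.27, adjusted p = 0.0243). These calls were lost in 6 and 4 of 8 fits without 1 library. Amt, the aminomethyltransferase of the same system, was lower at 8 h, with 5.97, 10.7, 6.93 and 5.32 CPM in fasted libraries, against 13.8, 14.6, 17.9 and 13.4 CPM in fed libraries and a log2 fold change of -0.99 ± 0.25 (SE, adjusted p = 0.00291). Gcsh, its lipoyl carrier protein, was not called at any time, with values of -0.42 ± 0.19 at 3 h and -0.45 ± 0.19 at 8 h. Agxt, which detoxifies glyoxylate to glycine, was not called either, with changes between -0.61 and 0.80. The 3 subunits measured of the glycine cleavage system therefore included 1 called higher, 1 called lower and 1 not called at 8 h.

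All 4 genes of tryptophan breakdown were called at 3 h and at 8 h, and in opposite directions along the pathway. Tdo2, the dioxygenase that opens the indole ring and commits tryptophan to the kynurenine pathway, had 912, 1432, 802 and 1682 CPM in fasted libraries, against 190.2, 301, 330.5 and 384 CPM in fed libraries after 8 h. It had the highest fold change of the 46 at that time, with a log2 fold change of 2.06 ± 0.27 (SE, adjusted p = 1.05e-06). Its change was 1.78 ± 0.27, 0.98 ± 0.26 and 1.16 ± 0.26 at 3, 16 and 24 h (adjusted p = 7.2e-06, 0.00965 and 0.00203). Fasted and fed libraries of Tdo2 did not overlap at any of the 4 times. Kmo, the kynurenine 3-monooxygenase, was higher at 3 h (0.82 ± 0.28, adjusted p = 0.0212) and 8 h (0.92 ± 0.28, adjusted p = 0.0108). Its 8 h call was lost without fasted replicate 4, which held 734 CPM while the other 3 held 156 to 363 CPM (adjusted p = 0.226), and its 3 h call was lost without fed replicate 2 (adjusted p = 0.0556). Kynu, the kynureninase, was higher at 3, 8 and 24 h by 0.55 ± 0.22, 0.78 ± 0.22 and 0.73 ± 0.22, where the 3 h and 24 h calls were lost in 5 and 2 of 8 fits. Haao, the dioxygenase that follows Kynu and feeds NAD synthesis, was lower throughout. It had 222, 216, 207 and 173 CPM in fasted libraries, against 415, 471, 461 and 475 CPM in fed libraries after 8 h, with a log2 fold change of -1.10 ± 0.12 (SE, adjusted p = 9.72e-08). At 3, 16 and 24 h its change was -0.59 ± 0.12, -0.58 ± 0.12 and -0.35 ± 0.12, and in each case all fasted libraries were below all fed ones. The 24 h call of Haao was lost in 6 of 8 fits without 1 library (adjusted p up to 0.175, without fed replicate 2).

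Of the 4 genes of tyrosine breakdown, Hpd, Fah and Hgd were called at 1 or more times and Tat was not. Tat, the rate-setting aminotransferase, had 3718, 1705, 4012 and 2693 CPM in fasted libraries, against 1237, 1507, 1390.4 and 1474 CPM in fed libraries after 3 h. The groups did not overlap, but with a log2 fold change of 1.17 ± 0.52 (SE, adjusted p = 0.0717) the change was not called. Other analyses did call Tat higher at 3 h, with an adjusted p of 0.0353 by DESeq2 and 0.0029 by edgeR on only the 8 libraries of that time. The authors' deposited table gives a log2 fold change of 1.18 with an adjusted p of 0.0471 for Tat at 3 h. At 24 h the fit to only 8 libraries also called it (edgeR's adjusted p = 0.0194). Hpd, which makes homogentisate, was higher at 3 h by 0.79 ± 0.23 (SE, adjusted p = 0.00799), and Fah, which ends the pathway with fumarate and acetoacetate, was higher at 3 h by 0.64 ± 0.14 (SE, adjusted p = 0.000728). Fah had 494, 484, 496 and 457 CPM in fasted libraries, against 372, 268, 321 and 330.0 CPM in fed libraries at that time, without overlap. At 16 h Fah was lower, with -0.51 ± 0.14 (SE, adjusted p = 0.0129), a call lost without fed replicate 4 or fasted replicate 4 (adjusted p = 0.0569 each). Hgd, which opens the ring of homogentisate, was higher at 8 h (0.70 ± 0.24, adjusted p = 0.0221) and 24 h (0.82 ± 0.24, adjusted p = 0.0134). The 8 h call was lost without fasted replicate 4, which held 2831 CPM while the other 3 held 907 to 1437 CPM (adjusted p = 0.3), or without fed replicate 4 (adjusted p = 0.054). The 24 h call was lost without fasted replicate 1 (adjusted p = 0.052).

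Aass, the first enzyme of lysine breakdown, had 4190.0, 1137, 4096 and 1472 CPM in fasted libraries, against 671, 787, 581 and 696 CPM in fed libraries after 3 h. All fasted libraries were above all fed ones, but replicates 1 and 3 were far above replicates 2 and 4, with a log2 fold change of 2.05 ± 0.56 (SE, adjusted p = 0.00472). At 24 h it was higher by 1.70 ± 0.56 (SE, adjusted p = 0.0263), again without overlap, and that call was lost in 4 of 8 fits. After 16 h its fasted libraries held 337, 807, 3169 and 210.1 CPM, so replicate 3 was above and replicates 1 and 4 were below the 412 to 960 CPM of fed libraries.

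In branched-chain amino acid breakdown, the transaminase and the dehydrogenase went opposite ways at 3 and 8 h. Bcat2, the aminotransferase, which is known mainly from tissues other than hepatocytes, had 36.7, 28.1, 28.7 and 23.3 CPM in fasted libraries, against 54.0, 65.2, 65.4 and 72.8 CPM in fed libraries after 8 h, with a log2 fold change of -1.08 ± 0.19 (SE, adjusted p = 3.81e-05). At 3 h it had 28.3, 48.0, 30.2 and 41.0 CPM in fasted libraries, against 69.4, 61.1, 66.0 and 59.2 CPM in fed libraries, with a log2 fold change of -0.73 ± 0.18 (SE, adjusted p = 0.00225). It was not called at 16 or 24 h (0.01 ± 0.18 and 0.01 ± 0.18). Bckdha, the E1 alpha subunit of the dehydrogenase complex, was higher at 3 h (1.02 ± 0.19, adjusted p = 0.000117) and 8 h (0.74 ± 0.19, adjusted p = 0.00286). Bckdhb, the E1 beta subunit, was higher at 3, 8 and 16 h by 0.36 ± 0.12, 0.78 ± 0.12 and 0.40 ± 0.12, where only the 8 h call held in each fit without 1 library. At 8 h Bckdhb had 1516, 1482, 1493 and 1646 CPM in fasted libraries, against 864, 916, 953 and 986 CPM in fed libraries, without overlap. Dbt, the E2 core, was not called, with changes between -0.35 and 0.40.

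Oat, the ornithine aminotransferase, which links ornithine to proline and glutamate, had 347, 264, 377 and 287 CPM in fasted libraries, against 58.8, 90.2, 89.4 and 71.9 CPM in fed libraries after 24 h. The fasted libraries were all above the fed ones, with a log2 fold change of 2.06 ± 0.38 (SE, adjusted p = 0.000339), and at 3 h Oat was higher by 1.22 ± 0.37 (SE, adjusted p = 0.0106). The proline genes went down or did not pass the test. Prodh, the proline dehydrogenase, was lower at 8 h, with -0.74 ± 0.24 (SE, adjusted p = 0.0151), a call lost without fed replicate 2 or fasted replicate 4 (adjusted p = 0.0683 and 0.0625). Aldh4a1, which oxidises the product of Prodh to glutamate, was lower at 8 h, with -0.75 ± 0.20 (SE, adjusted p = 0.00328), without overlap. Prodh2, which oxidises hydroxyproline, was not called at any time, although its fasted libraries lay below the fed ones at 3 and 8 h (-0.36 ± 0.20 and -0.47 ± 0.20, adjusted p = 0.154 and 0.0662).

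Of the 4 histidine genes Hal, Uroc1, Amdhd1 and Ftcd, which carry histidine to glutamate and a one-carbon unit, 1 was called, at 1 time. That was Uroc1, the urocanate hydratase, lower at 16 h with 417, 439, 522 and 281 CPM in fasted libraries, against 558, 684, 874 and 571 CPM in fed libraries and a log2 fold change of -0.68 ± 0.18 (SE, adjusted p = 0.00766). The 4 genes' changes over all 4 times lay between -0.68 and 0.44.

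The 8 genes of methionine and one-carbon metabolism included genes called higher and genes called lower at each time. Mat1a had 3985, 2450.2, 4660.1 and 2670.1 CPM in fasted libraries, against 1288, 1250.1, 1030.3 and 1058 CPM in fed libraries after 3 h, with a log2 fold change of 1.63 ± 0.28 (SE, adjusted p = 3.52e-05). At 8, 16 and 24 h it was higher by 1.35 ± 0.28, 1.02 ± 0.28 and 1.25 ± 0.28. Groups did not overlap at 3, 8 and 24 h. At 16 h Mat1a had 2003, 3107, 4578 and 1759.8 CPM in fasted libraries, against 1873, 1815, 872 and 1177 CPM in fed libraries, with overlap, and the call was lost without fasted replicate 3 (adjusted p = 0.0885).
Dmgdh, the mitochondrial dimethylglycine dehydrogenase, had 253, 218, 232 and 207 CPM in fasted libraries, against 605, 780.5, 681 and 522 CPM in fed libraries after 8 h. Its change of -1.45 ± 0.17 (SE, adjusted p = 2.08e-07) was the lowest of the 46 genes at that time. At 3 h it had 383, 379.6, 470.4 and 435 CPM in fasted libraries, against 883, 736, 641 and 684 CPM in fed libraries, with a log2 fold change of -0.75 ± 0.17 (SE, adjusted p = 0.000788). Pipox, the peroxisomal sarcosine and pipecolate oxidase, had 114, 117, 91.2 and 93.3 CPM in fasted libraries, against 249, 264, 245 and 231 CPM in fed libraries after 8 h, with a log2 fold change of -1.20 ± 0.13 (SE, adjusted p = 3.57e-08). At 16 h Pipox had 157, 168, 93.9 and 136 CPM in fasted libraries, against 235, 243, 228 and 254 CPM in fed libraries, with a log2 fold change of -0.78 ± 0.13 (SE, adjusted p = 6.93e-05). Its groups did not overlap at 3, 8 or 16 h. At 24 h it was lower, with -0.36 ± 0.13 (SE, adjusted p = 0.0333), with overlap and with the call lost in 4 of 8 fits.
Sardh, the sarcosine dehydrogenase, had 535, 452, 429 and 501 CPM in fasted libraries, against 822, 793, 878 and 857 CPM in fed libraries after 3 h, with a log2 fold change of -0.74 ± 0.26 (SE, adjusted p = 0.0249). After 24 h it had 348, 289, 549 and 387 CPM in fasted libraries, against 719, 949, 745 and 535 CPM in fed libraries, with a log2 fold change of -0.89 ± 0.26 (SE, adjusted p = 0.0146). The 3 h groups did not overlap and the 24 h groups did in fasted replicate 3 and fed replicate 4. The calls were lost in 4 and 2 of 8 fits without 1 library.
Bhmt, which remethylates homocysteine with betaine, turned round. After 8 h it had 641, 445, 507 and 335 CPM in fasted libraries, against 794, 1215, 965 and 981 CPM in fed libraries, with a log2 fold change of -0.98 ± 0.36 (SE, adjusted p = 0.0315). After 16 h it had 1337, 712, 913 and 296 CPM in fasted libraries, against 295, 314, 215 and 266 CPM in fed libraries, with a log2 fold change of 1.59 ± 0.36 (SE, adjusted p = 0.00292). After 24 h it had 232, 326, 376 and 145 CPM in fasted libraries, against 719, 1349.8, 275 and 664 CPM in fed libraries, with a log2 fold change of -1.47 ± 0.36 (SE, adjusted p = 0.00401). At 16 h the fed libraries were low and fasted replicate 4 lay among them, and at 24 h fed replicate 3 lay among the fasted libraries. The 8 h call was lost in 6 of 8 fits, and those at 16 and 24 h held in every fit.
Cbs and Cth, the 2 transsulfuration enzymes that turn homocysteine into cysteine, were higher at 24 h, by 1.39 ± 0.27 (SE, adjusted p = 0.000449) and 1.75 ± 0.53 (SE, adjusted p = 0.0182). The call of Cth was lost without fed replicate 1 or fasted replicate 3 (adjusted p = 0.0609 to 0.065). Cbs was lower at 8 h, with -0.67 ± 0.26 (SE, adjusted p = 0.0458), a call lost in each of the 8 fits without 1 library. Gnmt, which spends S-adenosylmethionine on glycine, was not called at any time, with changes between -0.74 and 0.49.

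**Figure D2:**
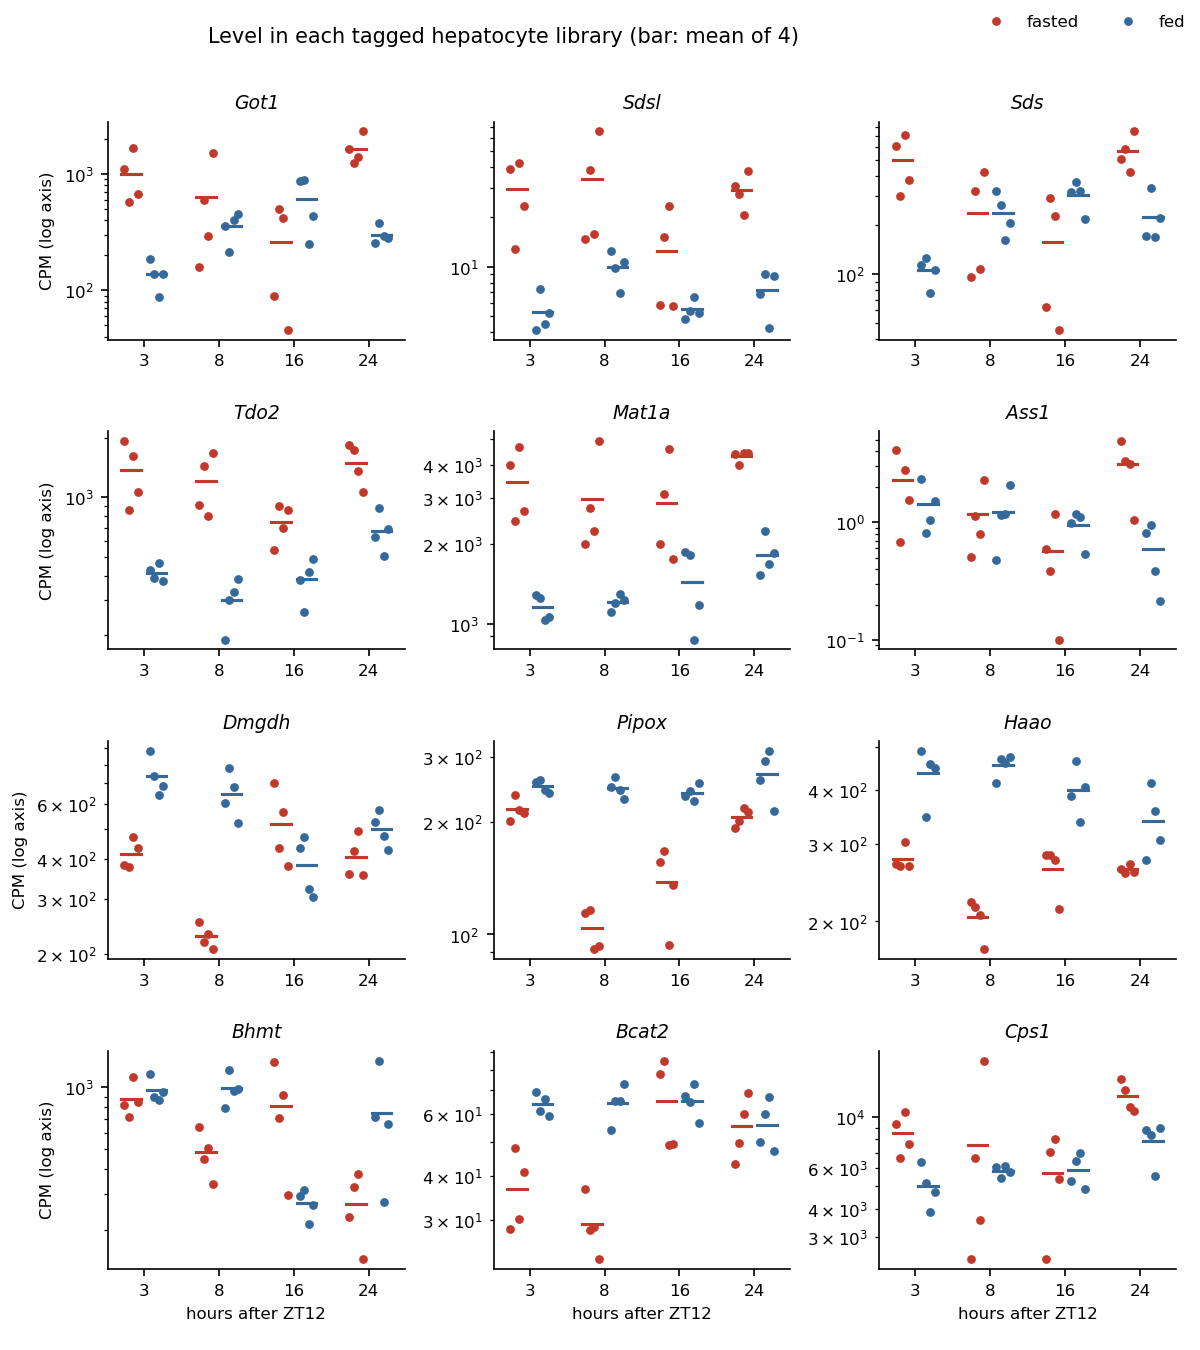
Each point is the CPM (log axis) of 1 tagged hepatocyte library for 12 of the genes, by hours after ZT12, with fasted libraries in red to the left of fed libraries in blue, and bars at the mean of 4. Tdo2 and Haao separate the feeding states at all 4 times in opposite directions, Got1, Sds and Cps1 spread widely among fasted libraries at 8 and 16 h, and Bhmt changes its direction between 16 and 24 h.

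At 3 and 8 h most of the higher genes had their highest fasted values in the same hepatocyte libraries. At 3 h, replicates 1 and 3 held the 2 highest fasted values for 16 of the 18 higher genes (43.4% of all genes called higher), and replicate 2 held the lowest for 13 of 18 (43.9%). At 8 h, replicate 4 was the highest for 11 of the 12 higher genes (47.6% of all genes called higher). At the later times no pair of libraries held the 2 highest values for most of them. The most frequent pair did so for 2 of 6 higher genes at 16 h and 4 of 13 at 24 h (24.5% and 9.12% of all genes called higher). The median SD of log2 CPM (pseudocount 0.1) within a group was 0.29, 0.36, 0.55 and 0.24 for the 46 genes in fasted nuclei at 3, 8, 16 and 24 h, and 0.17, 0.18, 0.31 and 0.27 in fed nuclei. Over all genes tested it was 0.23, 0.26, 0.32 and 0.20 in fasted and 0.17, 0.19, 0.22 and 0.27 in fed nuclei. The 14 hepatocyte markers summed to 12173 to 15461 CPM in fasted against 9501 to 13080 CPM in fed nuclei at 3 h, 7016 to 9879 against 9729 to 13130 CPM at 8 h, 7269 to 11269 against 10269 to 11283 CPM at 16 h, and 10758 to 14032 against 11649 to 16106 CPM at 24 h. Of these markers 5 were higher and 3 lower at 3 h, and 3, 2 and 3 were lower and no other was called at 8, 16 and 24 h. The 14 macrophage markers summed to 60.2 to 86.6 CPM in fasted against 46.8 to 52.2 CPM in fed nuclei at 8 h, and their part was not tested. What set the fasted libraries apart from each other was not tested.

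The effect of fasting differed between times for 16 of the 46 genes, where 32.8% of all genes did so. The smallest p values were those of Dmgdh (adjusted p = 1.36e-05), Pipox (0.000226), Bhmt (0.000264), Cbs (0.000322), Fah (0.000873) and Got1 (0.0018). The one-carbon genes Dmgdh and Pipox had their lowest values at 8 h, and for Dmgdh the 16 h fold change was 0.46 ± 0.17, which was not called. Cbs went -0.01 ± 0.26, -0.67 ± 0.26, -0.65 ± 0.26 and 1.39 ± 0.27 over the 4 times, and Fah 0.64 ± 0.14, 0.00 ± 0.14, -0.51 ± 0.14 and -0.03 ± 0.14. For Tdo2 and Mat1a, which were higher at all 4 times, the test of a difference between times gave adjusted p = 0.0602 and 0.563, so a constant effect was not shown and a changing one not detected.

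The level in fed hepatocyte nuclei differed between times of day for 17 of 46 genes (30.1% of all genes) and that in fasted nuclei for 27 (44.9%). Agxt had the smallest p of the fed test (adjusted p = 1.02e-06). Its fed libraries held 80.5, 57.8, 54.9 and 59.2 CPM at ZT15, 105, 149.8, 124 and 146 CPM at ZT20, 187, 128, 151 and 186 CPM at ZT4, and 20.7, 37.1, 20.01 and 14.4 CPM at ZT12, so those at ZT12 lay below every fed library of the other 3 times. Cbs (adjusted p = 4.66e-06) held 290.2, 307, 247 and 278 CPM at ZT15, 550.2, 511, 453 and 481 CPM at ZT20, 338, 449, 513 and 383 CPM at ZT4, and 124, 154, 72.4 and 80.3 CPM at ZT12 in fed nuclei. Oat (adjusted p = 2.36e-05) held 113, 136, 85.3 and 129.6 CPM at ZT15, 370.0, 286, 195 and 190.0 CPM at ZT20, 590.3, 752, 187 and 354 CPM at ZT4, and 58.8, 90.2, 89.4 and 71.9 CPM at ZT12. Fed levels of both were lowest at ZT12, and the fasted means at 24 h were 278 ± 75.6 CPM for Cbs and 319 ± 52.6 CPM for Oat (SD, n = 4). The 24 h rises of these 2 genes stood against the lowest fed means of the day. Amdhd1 (adjusted p = 7.2e-05) held 236, 235, 205 and 195 CPM at ZT15, 300.4, 335, 346 and 312 CPM at ZT20, 512, 412, 355 and 361 CPM at ZT4, and 129, 256, 144 and 100.1 CPM at ZT12 in fed nuclei, highest at ZT4. Gpt2 went the other way with its highest fed levels at ZT12, and held 361, 392.02, 327 and 279 CPM at ZT15, 363, 334, 324 and 300.3 CPM at ZT20, 294, 349, 261 and 201 CPM at ZT4, and 693, 839, 585 and 600.4 CPM at ZT12 (adjusted p = 0.000552). Dmgdh held 883, 736, 641 and 684 CPM at ZT15, 605, 780.5, 681 and 522 CPM at ZT20, 434, 471, 322 and 304 CPM at ZT4, and 526, 574, 475 and 428 CPM at ZT12 (adjusted p = 0.000534), with its lowest fed mean at ZT4. In fasted nuclei the smallest p was that of Pipox (adjusted p = 3.27e-07), at 217 ± 15.2, 104 ± 13.3, 138 ± 32.6 and 207 ± 11.6 CPM after 3, 8, 16 and 24 h, followed by Dmgdh, Bcat2, Prodh, Hpd and Bhmt. Length of fast and time of day change together here and cannot be told apart in fasted nuclei alone.

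**Figure D3:**
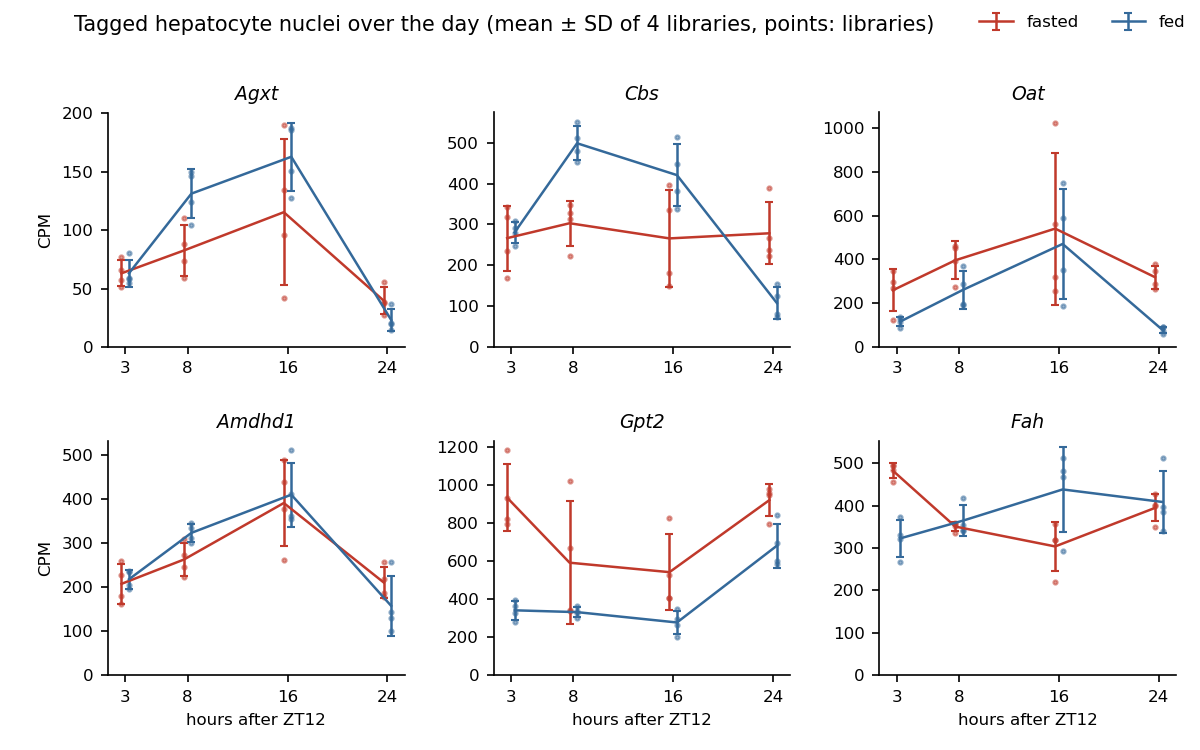
CPM in tagged hepatocyte nuclei against hours after ZT12 for 6 of the genes, with fasted libraries in red and fed libraries in blue, points for libraries, lines through the means and bars for the SD of 4 libraries. Fed levels of Agxt, Cbs, Oat and Amdhd1 are lowest at 24 h, and the fasted means of Cbs and Oat lie above the fed means there.

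A further 58 genes of the same pathways were listed as transporters, other steps and partner enzymes. In hepatocyte nuclei, 55 of the 58 were tested, and 17 were higher and 11 lower at 3 h (19.5% and 20.4% of all genes), 8 and 15 at 8 h (18% and 20.7%), 5 and 7 at 16 h (9.55% and 8.55%), and 7 and 7 at 24 h (11.6% and 12.4%). The highest at 3 h were Ppm1k, the phosphatase that switches on the branched-chain dehydrogenase, with 1.52 ± 0.30 (SE, adjusted p = 0.000227), and Ahcy, which hydrolyses S-adenosylhomocysteine, with 1.46 ± 0.33 (SE, adjusted p = 0.00076). Ppm1k averaged 232 ± 31.2 CPM in fasted and 84.2 ± 29.5 CPM in fed nuclei (SD, n = 4 each). The lowest at 3 h were Ethe1, the mitochondrial persulfide dioxygenase, with -2.44 ± 0.42 (SE, adjusted p = 4e-05), and Gcat, which splits aminoketobutyrate to glycine, with -1.66 ± 0.24 (SE, adjusted p = 3.69e-06). At 8 h Aadat, a kynurenine and aminoadipate aminotransferase, was highest (1.46 ± 0.20, adjusted p = 1.96e-06), followed by Slc25a22, a mitochondrial glutamate carrier (1.30 ± 0.31, adjusted p = 0.00138). The lowest at 8 h were Gcat (-2.13 ± 0.24, adjusted p = 1.12e-07) and Ido2, an indoleamine dioxygenase (-1.37 ± 0.22, adjusted p = 1.84e-05). Gcat averaged 4.56 ± 0.454 CPM in fasted and 20.9 ± 6.37 CPM in fed nuclei at that time (SD, n = 4 each), and it was lower at all 4 times. At 16 h the highest were Csad, which makes hypotaurine in taurine synthesis (1.49 ± 0.41, adjusted p = 0.0121), and Aadat (0.89 ± 0.20, adjusted p = 0.0021), and the lowest were Ccbl1, a second kynurenine aminotransferase (-1.37 ± 0.22, adjusted p = 6.59e-05), and Ido2 (-1.26 ± 0.22, adjusted p = 0.00019). At 24 h Slc25a15, the carrier that brings ornithine into mitochondria for the urea cycle, rose by 2.16 ± 0.41 (SE, adjusted p = 0.000376), with means of 689 ± 111 CPM in fasted and 156 ± 22.4 CPM in fed nuclei (SD, n = 4 each). Csad followed with 2.10 ± 0.42 (SE, adjusted p = 0.000676), and Gcat (-0.86 ± 0.24, adjusted p = 0.00996) and Ccbl1 (-0.63 ± 0.22, adjusted p = 0.0332) were lowest.

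The authors' deposited table for hepatocyte nuclei listed 44 of the 46 genes, leaving out Bcat2 and Bhmt. At an adjusted p under 0.05 in the authors' deposited table, 15 of these were higher and 4 lower at 3 h, where 23.1% and 18.4% of its 4745 genes were. The counts in the authors' deposited table were 13 and 7 at 8 h (25.6% and 17.2% of its genes), 5 and 4 at 16 h (13% and 8.62%), and 13 and 1 at 24 h (12.4% and 11.6%). The authors' deposited table for macrophage nuclei listed none of the 46 genes. It held 3762 of the 20105 genes counted, and the hepatocyte shares above are of the 4745 genes listed there. How the authors chose the genes of each table was not examined. Absence from a table is therefore not a result on fasting.

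In tagged macrophage nuclei the 46 genes were lower than in unpurified nuclei by about as much as hepatocyte markers. Against unpurified nuclei of the same line, 46 of 46 were lower (40.7% of the 13953 genes tested were), by a median of -1.20 on the log2 scale, beside -1.22 for the 14 hepatocyte markers, of which 14 were lower. The 3 lowest were Ass1 (-1.49 ± 0.31), Tdo2 (-1.42 ± 0.18) and Bhmt (-1.36 ± 0.35), and 45 of the 46 lay between -1.49 and -0.82. Tdo2 had 98.1, 319.8 and 1028 CPM (lowest, median and highest) in the 32 tagged macrophage libraries and 477, 778 and 1544 CPM (lowest, median and highest) in the 8 pools. The exception was Bcat2, at -0.29 ± 0.06 (adjusted p = 8.44e-05). Bcat2 had a median of 43.0 CPM in tagged macrophage nuclei (29.9 to 55.9 CPM over 32 libraries) and 56.6 CPM in unpurified nuclei (35.2 to 68.4 CPM over 8 pools). Set against fed hepatocyte nuclei, fed macrophage nuclei were lower for 46 of 46 (42.7% of 14011 genes), by a median of -1.43. The lowest were Amdhd1 (-1.80 ± 0.12), Hal (-1.68 ± 0.15) and Gpt (-1.68 ± 0.14), Bcat2 was again the least different (-0.44 ± 0.08), and the hepatocyte markers had a median of -1.38. Cell type, mouse line and library-number range cannot be told apart in that comparison.

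Tagged hepatocyte nuclei differed from unpurified nuclei for 25 of 46 genes, all of them higher (28.8% of 13463 genes were higher and 21.5% lower). DESeq2 called 21 of the 46, and 6240 of all genes. The median log2 difference was 0.34, beside 0.12 for all genes and 0.22 for hepatocyte markers, of which 4 of 14 were higher. Gpt led with 0.51 ± 0.12, then Amt (0.46 ± 0.14) and Prodh (0.45 ± 0.12). Gpt had 33.5, 79.2 and 125 CPM (lowest, median and highest) in the 32 tagged hepatocyte libraries and 38.9, 59.6 and 67.1 CPM (lowest, median and highest) in the 8 pools. Ass1, at -0.27 ± 0.28, was the one gene below 0 and was not called.

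**Figure D4:**
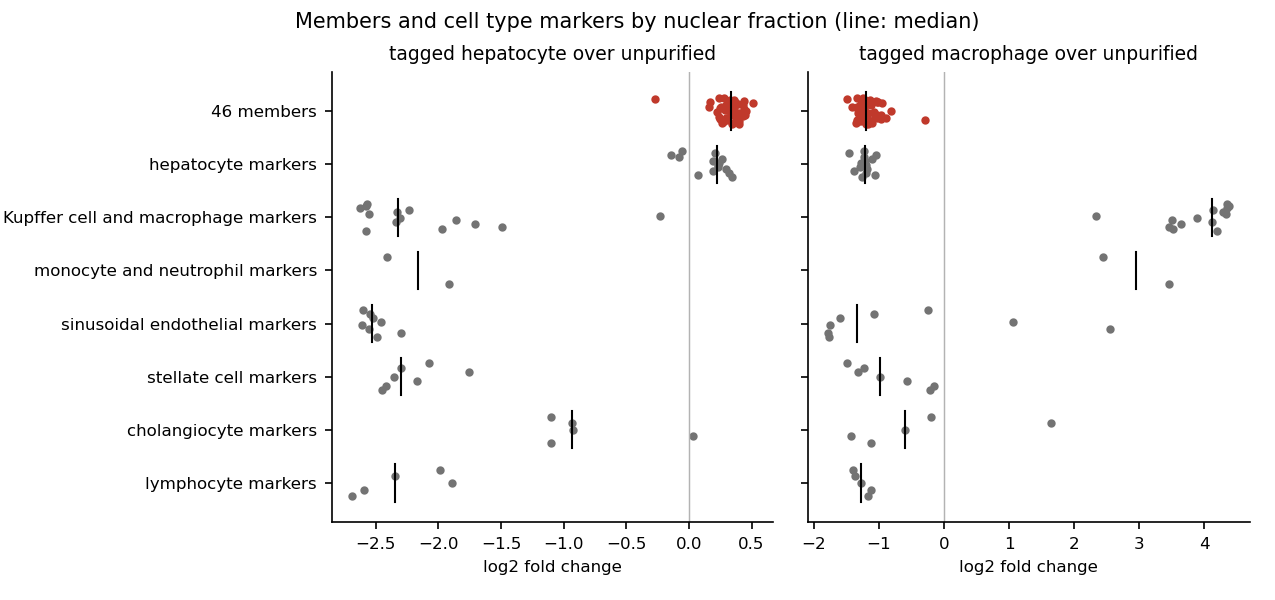
Log2 fold change of tagged over unpurified nuclei, for hepatocyte nuclei on the left and macrophage nuclei on the right, with 1 point per gene and a line at the median of each list. The 46 genes (red) lie with the hepatocyte markers in both panels, at medians of 0.34 and -1.20, and the point at -0.29 in the right panel is Bcat2.

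Of the genes called in fasted macrophage nuclei, most were higher. After 3 h, 11 of 46 genes were higher and 2 lower (7.7% and 4.68% of 13864 genes), and after 8 h 9 and 1 (7.44% and 5.4%). After 16 h 3 were called, all higher (7.72% of all genes were higher and 5.99% lower), and after 24 h 9, all higher (5.31% and 6.35%). The median log2 fold change of the 46 was 0.29, 0.56, 0.17 and 0.55 at 3, 8, 16 and 24 h, beside -0.05, 0.01, 0.04 and -0.00097 for all genes tested. DESeq2 called 7 of the 46 at 16 h, 1 of them lower, and 2345 of all genes. With 1 library left out at a time, 4 of the 13 calls at 3 h, 5 of 10 at 8 h, 0 of 3 at 16 h and 4 of 9 at 24 h held in each of the 8 fits. The fasted libraries lay above all fed ones for 17, 14, 3 and 14 of the 46 genes at 3, 8, 16 and 24 h (9.36%, 12.3%, 9.17% and 11.5% of all genes), and below for 1, 1, 4 and 0 (6.07%, 9.18%, 8.5% and 8.37%). The summed hepatocyte markers moved the same way in these libraries. They summed to 6017 to 6837 CPM in fasted against 4278 to 5959 CPM in fed nuclei at 3 h, and 5290 to 6614 against 3069 to 4525 CPM at 8 h. At the later times they were 3553 to 6232 against 3191 to 4521 CPM (16 h) and 5328 to 8100 against 4504 to 6607 CPM (24 h). Of the 14 markers, 1, 7, 2 and 2 were called at 3, 8, 16 and 24 h, all higher. With the log2 sum of these markers as a covariate, 6 higher and 3 lower genes were called at 3 h (4.7% and 4.11% of the 13976 genes tested in that fit), 1 and 1 at 8 h (2.43% and 2.9%), 1 and 3 at 16 h (5.65% and 4.94%), and 5 at 24 h, all higher (4.37% of all genes were higher and 6.42% lower). Calls over all genes, both directions together, were also fewer with the covariate at each of the 4 times. In both fits, 8, 2, 1 and 4 genes were called at the 4 times. The part of hepatocyte RNA in the macrophage result beyond this was not tested, and in bulk nuclei fewer nuclei of a type and less RNA per nucleus cannot be told apart.

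The genes with the highest fold changes at 3 h were Aass, Tdo2 and Got1. Aass had 720.3, 711, 2427 and 1039 CPM in fasted libraries, against 394, 174, 343 and 297 CPM in fed libraries. Tdo2 had 467, 359, 1028 and 585 CPM in fasted libraries, against 213, 209, 138 and 111 CPM in fed libraries. Replicate 3, whose summed level of the 46 genes was the highest, held the top fasted value of both. The changes were 2.003 ± 0.43 (SE, adjusted p = 0.00338) for Aass, 1.85 ± 0.40 (SE, adjusted p = 0.00348) for Tdo2 and 1.80 ± 0.48 (SE, adjusted p = 0.0156) for Got1. Got1 had 442, 255, 414 and 308 CPM in fasted libraries, against 92.6, 84.4, 122 and 101 CPM in fed libraries. With the covariate they were 2.03 (adjusted p = 0.00845), 1.37 (adjusted p = 0.0294) and 2.17 (adjusted p = 0.00892). Without fasted replicate 3 the count of calls was 5 in place of 13, and Got1 was among the lost (adjusted p = 0.0522). The 2 lower genes were Gcsh, with 6.36, 6.78, 2.80 and 5.48 CPM in fasted libraries, against 10.2, 6.596, 13.4 and 9.26 CPM in fed libraries, and Bcat2. Bcat2 had 39.0, 41.5, 29.9 and 33.9 CPM in fasted libraries, against 50.8, 44.99, 48.7 and 46.7 CPM in fed libraries. Their changes were -0.91 ± 0.24 (SE, adjusted p = 0.0157) and -0.43 ± 0.12 (SE, adjusted p = 0.0158), and both calls were lost without fasted replicate 3 (adjusted p = 0.0698 and 0.066).

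After 8 h, Sdsl had 8.51, 8.83, 23.6 and 9.65 CPM in fasted libraries, against 1.62, 1.37, 3.88 and 4.20 CPM in fed libraries, with a log2 fold change of 2.21 ± 0.46 (SE, adjusted p = 0.0022). With the covariate the change was 1.76 (adjusted p = 0.0507). Aass had 658, 725, 1309.5 and 695 CPM in fasted libraries, against 199, 215, 265 and 281 CPM in fed libraries, with a log2 fold change of 1.83 ± 0.43 (SE, adjusted p = 0.00585), or 1.87 (adjusted p = 0.0354) with the covariate. Ass1 reached 1.998 ± 0.64 (SE, adjusted p = 0.0393) on 4 to 42 counts per library, a call lost in 6 of 8 fits. Fasted replicate 3 held the top value of all 3 genes, and without it, or without fed replicate 2, 5 genes were called in place of 10, and 6 without fed replicate 1. Bcat2 was the 1 lower gene, with 41.5, 35.6, 31.8 and 33.6 CPM in fasted libraries, against 43.9, 44.7, 48.8 and 48.4 CPM in fed libraries. It changed by -0.38 ± 0.12 (SE, adjusted p = 0.0308), a call lost in 6 of 8 fits. The 3 genes higher at 16 h were Oat, Mat1a and Kynu, with 1.26 ± 0.39, 0.90 ± 0.27 and 0.74 ± 0.24 (adjusted p = 0.0322, 0.0262 and 0.0433). Oat had 519, 405, 95.7 and 95.3 CPM in fasted libraries, against 99.4, 108, 179.5 and 85.3 CPM in fed libraries. Fasted replicates 1 and 2 were high and replicates 3 and 4 lay at the fed level. None of the 3 calls held in each fit without 1 library. Without fed replicate 1 or 4 or fasted replicate 1 the count at 16 h was 0, and without fed replicate 2 or fasted replicate 2 it was 1.

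After 24 h the leading genes were Agxt, Amdhd1 and Sdsl. Agxt had 9.63, 10.6, 18.8 and 18.6 CPM in fasted libraries, against 5.71, 3.58, 4.52 and 3.72 CPM in fed libraries. Amdhd1 had 72.9, 51.2, 69.3 and 78.4 CPM in fasted libraries, against 28.8, 17.6, 29.2 and 18.0 CPM in fed libraries. Sdsl had 8.08, 7.58, 8.03 and 7.61 CPM in fasted libraries, against 1.66, 0.667, 5.57 and 4.13 CPM in fed libraries. No fasted and fed values of these 3 overlapped. The changes were 1.70 ± 0.43 (SE, adjusted p = 0.00799), 1.52 ± 0.26 (SE, adjusted p = 0.000232) and 1.36 ± 0.45 (SE, adjusted p = 0.0495). With the covariate they were 1.69 (adjusted p = 0.0185), 1.35 (adjusted p = 0.00165) and 1.15 (adjusted p = 0.117), and the call of Sdsl was lost in 6 of 8 fits without 1 library. Fed replicates 1 and 2 at this time had summed levels of the 46 genes of 6508 and 5719 CPM, and fed replicates 3 and 4 of 13716 and 12827 CPM. Without fed replicate 1 or 2 or fasted replicate 4 the count was 4 in place of 9, and without fasted replicate 1 or 3 it was 5. The fasting effect in macrophage nuclei differed between times for 1 gene, Bcat2 (4.65% of all genes, adjusted p = 0.0142), which went -0.43 ± 0.12, -0.38 ± 0.12, -0.13 ± 0.12 and 0.34 ± 0.12. DESeq2 called 7 genes in that test. Fed levels differed over the day for 8 genes (12.8% of all genes), led by Agxt, Amdhd1 and Cbs, and fasted levels for 21 (38.1%).

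The median fasting effect of the 46 genes was 0.33, 0.02, -0.15 and 0.29 in hepatocyte nuclei and 0.29, 0.56, 0.17 and 0.55 in macrophage nuclei at 3, 8, 16 and 24 h, and the difference was tested gene by gene. By edgeR's test it was called for 0 of 46 genes at 3 h and at 16 h (10.6% and 0.535% of 14011 genes). At each of these times 1 gene passed an unadjusted p under 0.05 (Otc at 3 h and Got1 at 16 h). DESeq2 called 0 of the 46 at either time, and 1727 and 133 of all genes. It was called for 3 at 8 h and for 2 at 24 h, in each case with the hepatocyte effect below the macrophage effect (3.76% and 1.95% of genes). The 3 genes at 8 h were Dmgdh (-1.34 ± 0.40, adjusted p = 0.0253), Pipox (-1.09 ± 0.25, adjusted p = 0.00444) and Haao (-0.82 ± 0.25, adjusted p = 0.0312). The fold changes behind them were -1.45 ± 0.17, -1.20 ± 0.13 and -1.10 ± 0.12 in hepatocyte nuclei and -0.04 ± 0.36, -0.04 ± 0.22 and -0.21 ± 0.23 in macrophage nuclei. The 2 genes at 24 h were Bhmt (-3.08 ± 0.87, adjusted p = 0.0333) and Amdhd1 (-1.09 ± 0.33, adjusted p = 0.0485). Bhmt had 96.1, 74.9, 544 and 903 CPM in fasted libraries, against 51.3, 27.8, 285 and 162 CPM in fed libraries in macrophage nuclei at 24 h, where fasted replicates 3 and 4 and fed replicate 3 were high. At 8 h 1 gene was called when macrophage fed replicate 1 or 2 or hepatocyte fed replicate 2 was left out. At 24 h the count was 0 without macrophage fed replicate 2, macrophage fasted replicate 3 or 4, hepatocyte fed replicate 2 or hepatocyte fasted replicate 1 or 2, and at 3 h it was 1 without hepatocyte fasted replicate 2. Cell type, mouse line and library-number range cannot be told apart in these differences either. Hepatocyte markers were still read in tagged macrophage nuclei, and the part of hepatocyte RNA in these differences was not tested.

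**Figure D5:**
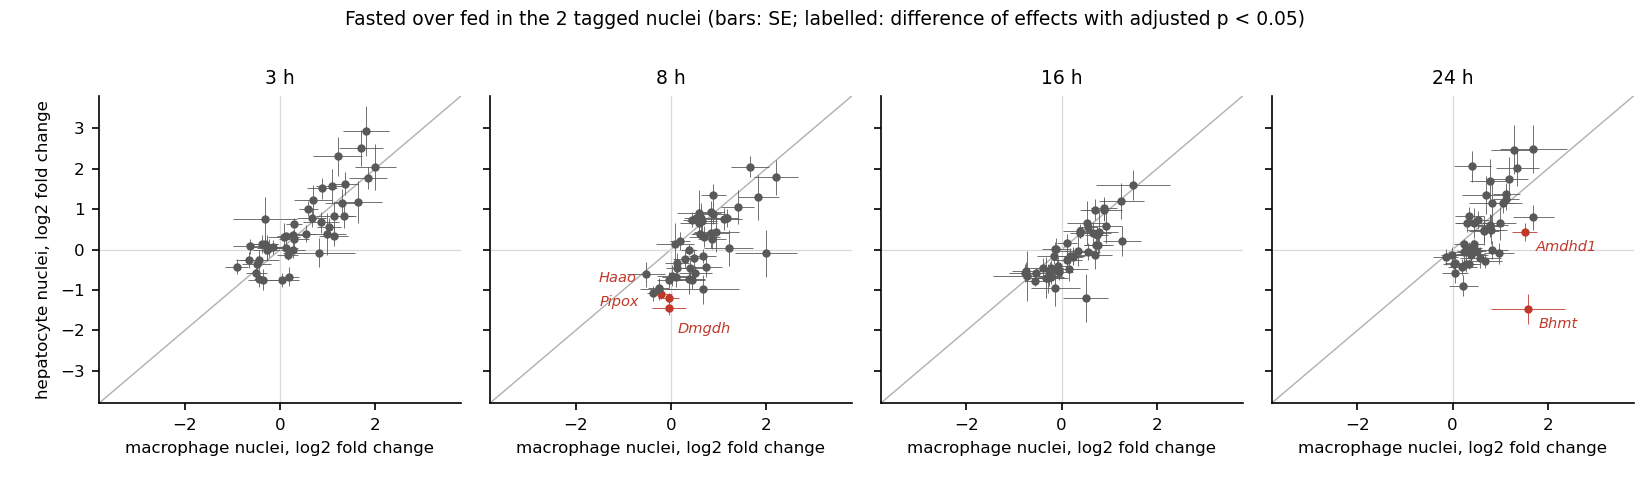
Each point is 1 of the 46 genes, with its log2 fold change of fasted over fed in macrophage nuclei on the horizontal axis and in hepatocyte nuclei on the vertical axis, SE bars and a line of equality, at 3, 8, 16 and 24 h. Of the 46 genes, 20, 34, 31 and 31 lie below the line at 3, 8, 16 and 24 h, and the named ones (Haao, Pipox and Dmgdh at 8 h, Amdhd1 and Bhmt at 24 h) are those with an adjusted p under 0.05 for the difference.

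The pools of unpurified nuclei gave 1 library per feeding state, time and line, so their fasting effect was tested as a mean over the 4 times. The fasting effect was called higher for 19 of 46 genes and lower for 9 (16.4% and 18.8% of 13700 genes). The fit allowed a constant difference between the lines. Its SE and p then reflect how far the pools of the lines otherwise disagree, and not the spread between mice. The highest were Sdsl (1.44 ± 0.14, adjusted p = 2.63e-05), Tdo2 (1.11 ± 0.11, adjusted p = 2.33e-05) and Aass (1.07 ± 0.12, adjusted p = 4.15e-05). The lowest were Haao (-0.56 ± 0.08), Otc (-0.46 ± 0.11) and Gcsh (-0.45 ± 0.08). At 3, 8, 16 and 24 h, Tdo2 had 1123, 1025, 653 and 932 CPM in the fasted pools of the hepatocyte line and 1486, 1234, 826 and 1544 CPM in the fasted pools of the macrophage line. It had 331, 259, 621 and 500.3 CPM in the fed pools of the hepatocyte line and 477, 572, 558 and 730.0 CPM in the fed pools of the macrophage line. Haao had 220.3, 159, 198 and 232 CPM in the fasted pools of the hepatocyte line and 259, 268, 244 and 254 CPM in the fasted pools of the macrophage line. It had 332, 331, 281 and 254 CPM in the fed pools of the hepatocyte line and 380.1, 442, 439.6 and 258 CPM in the fed pools of the macrophage line. For Tdo2 each fasted pool was above the fed pool of its line and time. For Haao each fasted pool was below its fed pool, by the least at 24 h. Before purification the pools of the macrophage line were higher than those of the hepatocyte line for 8 of the 46 genes, the only ones called (4.57% of all genes were higher and 6.44% lower), led by Otc (0.53 ± 0.12), Hgd (0.46 ± 0.10) and Tdo2 (0.46 ± 0.11). DESeq2 called 18. With 1 pool left out at a time the count lay between 3 and 14. Hepatocyte markers were higher in the same direction for 7 of 14, by a median of 0.29.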

How the data were processed

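The deposited counts were whole numbers per gene for 80 libraries, made by the authors from 50-base paired-end reads of total RNA, with STAR 2.4.2a, DESeq2 1.24.0 and mm10 named in the submitters' processing notes. The sources used here do not name the counting tool or say how it treated introns and strand. The authors' deposited comparison tables gave log2 fold changes and adjusted p-values.

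The counts were tested with edgeR 4.0.16 in R 4.3.3 (TMM factors, a filter by filterByExpr with a minimum of 10 counts and 15 in total, glmQLFit and a quasi-likelihood F-test, Benjamini-Hochberg adjustment over all genes tested). Fasting contrasts came from 1 fit over the 32 tagged libraries of a line, and comparisons between nuclei from 1 fit over 64. CPM used TMM factors over all 80 libraries, and an SE is the absolute log2 fold change over the root of F. The fit was also run on simulated counts, drawn independently for each gene and library. That run does not cover shifts that many genes of a library share.

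Values of every library were given for up to 3 called genes with the highest and 3 with the lowest fold change per line and time, for the 6 genes with the smallest p of the tests over times in hepatocyte nuclei, and at least 1 example per pathway. The 46 genes, the lists and these rules were chosen with earlier results of these data known. Replicates were numbered in accession order, and the only pairing tried was by runs of consecutive library numbers. Alternatives were RLE scaling, no filter, DESeq2 1.42.0, an adjusted p under 0.01, the 8 libraries of a time alone, a replicate block, hepatocyte markers as a covariate, and leaving out each library.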

Additional observations from a re-analysis of the deposited data

Results flagged for a closer look

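In 94 groups of 4 libraries, 4 values lay far from the other 3 by Dixon's criterion, where chance gives about 1 in 20. The summed level of the 46 genes was 30408 CPM in macrophage nuclei of fasted replicate 3 at 3 h, above 14923 to 15553 CPM in the other 3 libraries. Haao was 214 CPM in fasted hepatocyte replicate 4 at 16 h, below the other 3. In macrophage nuclei after 8 h of fast, replicate 3 held the highest Sdsl, at 23.6 CPM, and the highest Aass, at 1309.5 CPM.

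The fasting effect differed between the 4 times in hepatocyte nuclei for 16 of the 46 genes by edgeR's F-test, where 32.8% of all genes did so. The smallest adjusted p values were 1.36e-05 for Dmgdh, 0.000226 for Pipox, 0.000264 for Bhmt, 0.000322 for Cbs, 0.000873 for Fah and 0.0018 for Got1. In macrophage nuclei 1 gene differed between times, Bcat2 (edgeR's adjusted p = 0.0142), where 4.65% of all genes did so. The fasting effect differed between hepatocyte and macrophage nuclei for 3 genes at 8 h, Pipox (edgeR's adjusted p = 0.00444), Dmgdh (0.0253) and Haao (0.0312), and for 2 genes at 24 h, Bhmt (0.0333) and Amdhd1 (0.0485). In each the hepatocyte effect was below the macrophage effect, as was called for 3.76% of all genes at 8 h and 1.95% at 24 h.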

How the results depend on the processing

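In the fasting comparisons of tagged nuclei, none of the 108 called values changed sign under a setting run, while 74 of the 260 values not called did, and 65 of these 260 were called in 1 or more settings. Called values are by selection large beside their SE, and the settings reuse the same counts. A change of sign was thus unlikely from the start, and its absence is not a test of these calls. Of 62 called results for genes with the highest and lowest fold changes in a comparison, 40 were called in every setting at an adjusted p under 0.05 and 22 lost the call in 1 or more. An adjusted p under 0.01 gave, in hepatocyte nuclei, 14, 15 and 8 called genes at 3, 8 and 24 h, 10 for the difference between times and 14 for the fasted level. In macrophage nuclei it gave 5, 5, 0 and 4 at 3, 8, 16 and 24 h, 0 for the difference between times, 5 for the fed and 9 for the fasted level, and it gave 1 and 0 for the difference between nuclei at 8 and 24 h and 0 between the unpurified lines. With only the 8 libraries of a time, 6 genes were called in hepatocyte nuclei at 16 h and 16 in macrophage nuclei at 8 h. The same fits called 885 and 1757 of all genes. DESeq2 called 7 genes in macrophage nuclei at 16 h (2345 of all genes), 7 for their difference between times and 18 between the unpurified lines (1832 of all genes). RLE scaling and the fit with no filter each gave 1 for the difference between nuclei at 24 h (548 and 443 of all genes). With hepatocyte markers as a covariate, macrophage nuclei had 2 called genes at 8 h (746 of all genes), 5 at 24 h (1508 of all genes) and 2 for the difference between times. With the run of library numbers as a replicate block, 5 genes were called in macrophage nuclei at 16 h (1922 of all genes) and 2 for the difference between times. The block moved no other count by over 1.5 times. The labels give no replicate numbers that pair libraries. Leaving out 1 library gave, in hepatocyte nuclei, 19 to 24 called genes at 3 h, 15 to 26 at 8 h, 9 to 15 at 16 h, 11 to 16 at 24 h, 12 to 21 for the difference between times, 14 to 18 for the fed and 20 to 32 for the fasted level, and 19 to 27 against unpurified nuclei. In macrophage nuclei it gave 5 to 16, 5 to 11, 0 to 4 and 4 to 12 at the 4 times, 1 to 4 for the difference between times, 5 to 9 for the fed and 14 to 22 for the fasted level, and 46 to 46 against unpurified and against hepatocyte nuclei. It gave 0 to 1, 1 to 4, 0 to 0 and 0 to 3 for the difference between nuclei at the 4 times, and 25 to 28 for fasting and 3 to 14 for the line in the pools. What moved these counts was not tested, and some settings also had fewer libraries or a stricter threshold. Calls over all genes are not given here for the stricter threshold, the tests over times or the fits without 1 library. Where they are not given, a general shift in calling cannot be told from one in the 46 genes. Low counts limit Ass1 most, at a median of 1.08 CPM over tagged hepatocyte libraries. Amt, Sdsl, Nags and Gcsh had the next lowest medians, at 9.14, 10.3, 19.5 and 19.9 CPM. With 4 libraries a group, called genes of small change stay near the threshold.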
